A study of Sus scrofa with 6 samples.

Results

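HIF1A encodes HIF-1α, the oxygen-regulated subunit of hypoxia-inducible factor 1. The porcine array carried 4 probe sets annotated with exactly this symbol, out of 23999 probe sets fitted, and HIF1A was 1 of 6765 named genes, after the array's control probe sets were left out. A probe set is a group of short probes read together as 1 value. RNA came from IPEC-1, a non-transformed cell line from the small intestine of newborn piglets. One culture type was the air–liquid interface (ALI) culture, in which only a thin film of liquid covered the cells, and the other was the submerged culture (SMC), in which a column of medium stood on them. Both were grown on porous inserts and were kept without serum for the last weeks, and no other agent separated them. Each culture type had 3 arrays, and passages P109, P111 and P113 of the line each gave 1 ALI and 1 SMC array. All samples were thus passages of 1 line, and p-values measure the spread between these cultures.

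In cells with enough oxygen, prolyl hydroxylases modify HIF-1α, the von Hippel-Lindau protein binds it, and it is degraded. With little oxygen it is retained, pairs with ARNT and switches on genes for glycolysis, glucose uptake and other responses. HIF-1α is therefore known to be set largely at the level of the protein, while the array measured mRNA alone. In bulk RNA, fewer cells of a type and less RNA per cell cannot be told apart.

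The deposited values were on a log2 scale, ran between 2.503 and 14.867, and had similar medians on the 6 arrays (6.33 to 6.38). The lower quartile of values was 4.515 to 4.612, depending on the array. The table held no detection calls, so a value under the lower quartile of its own array is called dim here. The epithelial markers EPCAM, CDH1, KRT8, KRT18 and KRT19 were bright in both culture types. Of the 12 measured, 2 were dim on average in both, TJP1 (4.07 in ALI and 4.14 in SMC) and CDH17 (4.19 and 4.39). In limma 0 of these 12 passed, with 0 at an unadjusted p under 0.05 and 0 in the methods' t-test after adjustment. Over all 23999 probe sets, 3440 had an unadjusted p under 0.05 in limma. Of 10 measured enterocyte markers, FABP1, FABP2 and DPP4 were dim on average in both culture types, while others such as APOA1 (8.52 in ALI and 8.67 in SMC), HNF4A (7.13 and 7.15), SLC5A1 (6.33 and 6.88) and VIL1 (6.12 and 6.56) were above the limit. None of the 10 passed in limma, 2 (SLC5A1 and VIL1, both lower in ALI) had an unadjusted p under 0.05, and 0 passed the methods' t-test after adjustment. Of 8 measured fibroblast markers POSTN passed in limma, of 6 endothelial markers PECAM1 and of 7 immune markers AIF1, each lower in ALI. Of 7 smooth muscle markers ACTG2 passed as lower in ALI and RGS5 as higher. No other member of these lists passed, beside 2.53% of all named genes that did. Dim in both culture types were 3 fibroblast, 3 endothelial, 4 immune and 1 smooth muscle marker, the leukocyte marker PTPRC among them.

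The 4 HIF1A probe sets did not give 1 answer. They are named here by their level, and the plots carry their identifiers. The bright probe set was nearly level between the culture types. The intermediate probe set was lower in ALI, with a log2 fold change of −1.39. The partner probe set, which the annotation ties to the same sequence record as the intermediate one, and the dim probe set were near or under the dim limit, and neither passed the test. The bright and the dim probe set each had a sequence record of their own. The positions of the 4 on the HIF1A transcript were not given in the sources used here.

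The bright probe set had log2 values of 11.45, 11.70 and 11.49 in ALI (P109, P111 and P113), against 11.78, 11.77 and 11.54 in SMC. All 6 values were far above the dim limit, and the groups overlapped. The mean was 11.55 ± 0.134 in ALI and 11.70 ± 0.134 in SMC (SD, n = 3 each). The log2 fold change of ALI relative to SMC was −0.15 (SE 0.12, limma adjusted p = 0.626). Its 95% confidence interval ran from −0.42 to 0.12, that is a fold of 0.745 to 1.09, so a difference of that size could not be told from 0 with 3 arrays per group.

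The intermediate probe set had log2 values of 5.03, 4.70 and 4.52 in ALI, against 6.04, 5.65 and 6.75 in SMC. Each ALI value was under each SMC value, with a gap of 0.62 between the nearest of them. ALI averaged 4.75 ± 0.257 and SMC 6.14 ± 0.557 (SD, n = 3 each). The log2 fold change was −1.39 (SE 0.26, limma adjusted p = 0.0407), which is a signal 2.63-fold lower in ALI. The 95% confidence interval of the fold of ALI over SMC was 0.25 to 0.578. It stood at rank 392 of all probe sets ordered by p, and the threshold of 0.05 lay close by. The ALI array of P113 was dim for it, while the other ALI arrays and all SMC arrays were above the limit. With passage as a block the adjusted p was 0.0134. Left out 1 at a time, 5 of the 6 arrays took the limma adjusted p over the threshold (0.0538 to 0.102), and only without the SMC array of P113 was it kept, at 0.0439 with a log2 fold change of −1.09.

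Thus 1 of the 4 HIF1A probe sets was called, in the direction lower in ALI. Over all probe sets 1.9% were called at this threshold, with 0.663% higher and 1.23% lower in ALI. The groups of 3 did not overlap for 1 of the 4 HIF1A probe sets, beside 19.6% of all probe sets. With passage as a block, 5.32% of all probe sets were called and the HIF1A count stayed at 1, the same probe set. A count of 1 of 4 is too small to set against these shares.

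**Figure D1:**
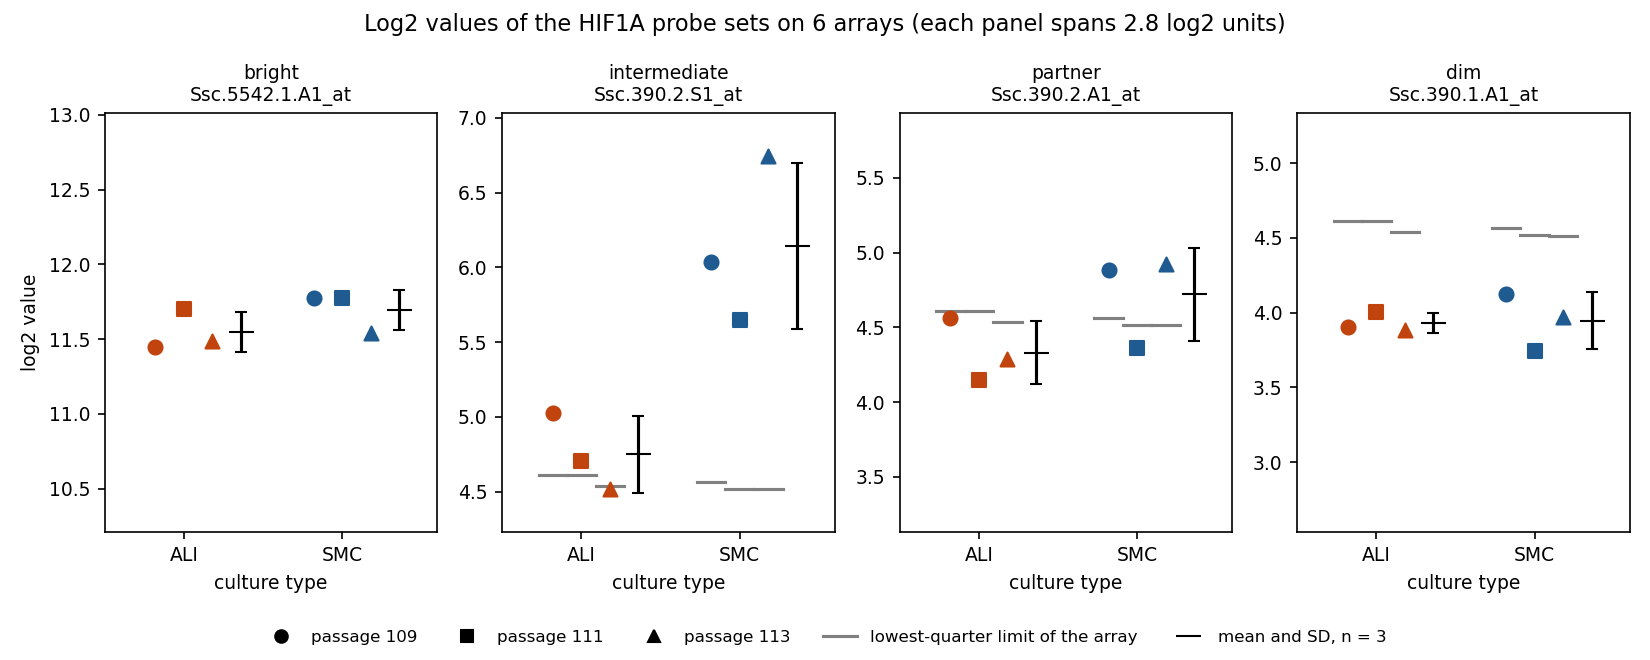
Log2 values of the 4 HIF1A probe sets on each of the 6 arrays, ALI left of SMC in each panel, with 1 point per array, the mean and its SD. Only the intermediate probe set has ALI points (4.52 to 5.03) that all lie under the SMC points (5.65 to 6.75).

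The partner probe set had log2 values of 4.56, 4.15 and 4.29 in ALI, against 4.88, 4.36 and 4.92 in SMC. All ALI arrays were dim for it and 2 of the SMC arrays were not, and the groups overlapped. Its log2 fold change was −0.39 (SE 0.18, 95% confidence interval −0.80 to 0.02, limma adjusted p = 0.366). The interval reached from a clear decrease to no difference, and with passage as a block it was −0.66 to −0.12 with an adjusted p of 0.113.

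The dim probe set had log2 values of 3.90, 4.01 and 3.88 in ALI, against 4.12, 3.75 and 3.97 in SMC. It was dim on all 6 arrays. The log2 fold change was −0.02 (SE 0.12, 95% confidence interval −0.30 to 0.26, limma adjusted p = 0.972), and at this level no direction can be read from it.

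**Figure D2:**
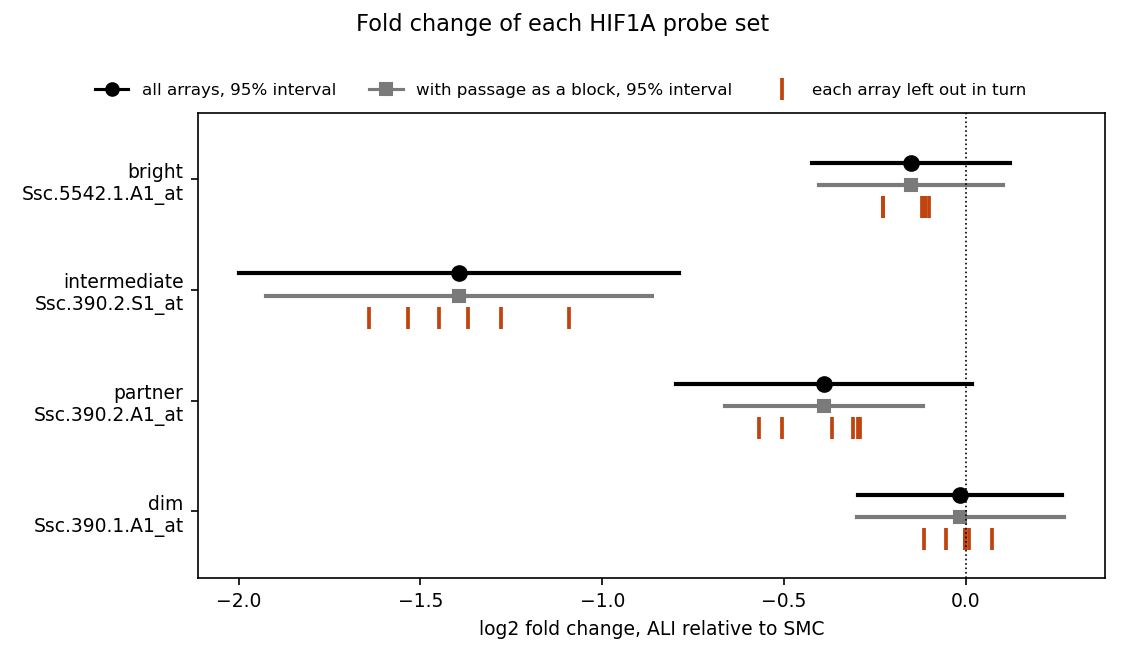
Log2 fold change of ALI relative to SMC for each HIF1A probe set, with its 95% confidence interval from limma for all arrays (black) and with passage as a block (grey), and red ticks for each array left out in turn. In the fit on all arrays the interval of the intermediate probe set ends at −0.79, under 0, and those of the other probe sets include 0.

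The cultures of a passage were also compared directly, without a test. For the intermediate probe set, ALI minus SMC was −1.01, −0.95 and −2.23 at P109, P111 and P113. The signal was lower in ALI at each passage, and the gap at P113 was the widest. Lower values at all 3 passages were found for 4447 probe sets, 18.5% of those fitted. With both arrays of P113 left out, a setting chosen after seeing the data, its log2 fold change was −0.98 with a limma adjusted p of 0.0406.

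For the bright probe set the differences were −0.33, −0.07 and −0.05, all small and all in the same direction. Over all probe sets the median size of such a difference was 0.165, 0.190 and 0.166 at the 3 passages, so only that of P109 was larger than is common. The partner probe set differed by −0.32, −0.22 and −0.64, and like the intermediate one it was lower in ALI at each passage and most so at P113. The dim probe set changed sign between passages, with −0.22, 0.26 and −0.09.

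**Figure D3:**
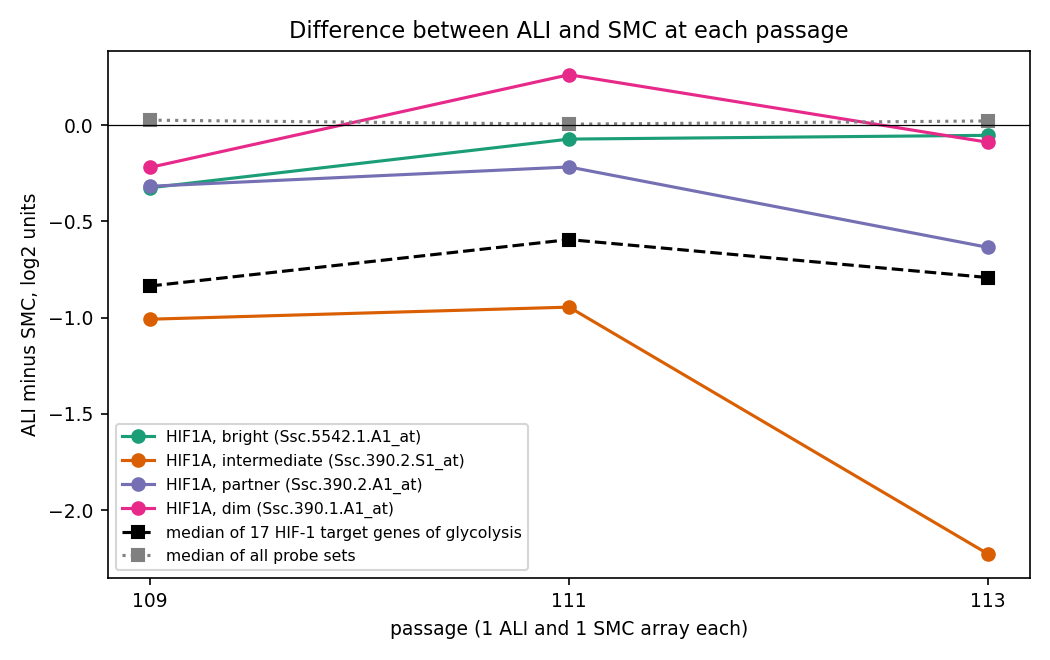
ALI minus SMC (log2) at P109, P111 and P113 for each HIF1A probe set, with the medians of the glycolytic targets and of all probe sets. The intermediate probe set lies at −0.95 or lower at each passage and lowest at P113 (−2.23), while the bright probe set stays between −0.33 and −0.05.

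The distance between probe sets on the same array was compared between the culture types, for all 6 pairs, with exact two-sided permutation tests. With 3 arrays against 3 the smallest possible p was 0.1, so no pair could pass 0.05. The distance of the bright probe set over the intermediate probe set was 6.80 ± 0.324 in ALI and 5.55 ± 0.684 in SMC (SD, n = 3 each), a difference of 1.24 (exact p = 0.1, adjusted over the pairs 0.2). The 3 pairs that held the intermediate probe set were those whose groups did not overlap. The intermediate probe set minus the partner probe set was 0.418 in ALI and 1.42 in SMC (exact p = 0.1, adjusted 0.2). These probe sets share a sequence record, and their log2 fold changes were −1.39 and −0.39. The 3 pairs without the intermediate probe set differed by 0.24, −0.13 and −0.37 (exact p = 0.5, 0.6 and 0.2, adjusted p = 0.6, 0.6 and 0.3).

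A single value for HIF1A therefore depended on how the probe sets were joined. The mean of the 4 probe sets was 6.14 ± 0.0961 in ALI and 6.63 ± 0.217 in SMC (SD, n = 3 each). The difference was −0.49, and the groups did not overlap (exact two-sided permutation p = 0.1, the smallest this design allows). In a limma fit on gene means the adjusted p was 0.0910. The median of the 4 gave −0.89 (exact p = 0.1), the probe set with the highest level −0.15 (exact p = 0.2), and the mean of the 2 probe sets above the dim limit −0.77 (exact p = 0.1). Each summary was lower in ALI, with sizes that spread from 0.15 to 0.89.

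HIF1A had been chosen with the disagreement of its probe sets known, so its place among other genes is a description. The span from the lowest to the highest log2 fold change of its probe sets was 1.38. Among the 203 genes with at least 4 probe sets this was the widest, against a median of 0.37, and ST3GAL1 (1.22), UPF3B (1.16) and then SLC1A1 followed. Among the 141 genes with exactly 4 probe sets it was also the widest. Of all 2261 genes with more than 1 probe set, 8 had a span at least as wide, HIF1A included. The upper end of the HIF1A span was the dim probe set, which was under the dim limit on every array. The fold changes of the bright and the intermediate probe set differed by 1.24. The rank was 6 without the SMC array of P113 (span 1.09) and 8 without both arrays of that passage (span 0.998), where DNMT1 was first with 1.46.

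Among genes with a called probe set, most had uncalled ones beside it. Of the 203 genes with at least 4 probe sets, 10 had a called one and 0 had all of them called. Of the 2261 genes with more than 1, 82 had a called one. Of these 82, 67 had some but not all called and 15 had all called. Names of the array also gave 379 pairs that, like the intermediate probe set and the partner probe set, differ only in the letter A or S, the intermediate one being an S. The meaning of the letters was not given in the sources used here. The median distance between the fold changes of such a pair was 0.152. In 2 pairs it was at least as large as for HIF1A, HIF1A itself included, and the other was PCDH7. The S member was called in 6 of the 379 pairs and the A member in 0, beside 1.9% of all probe sets called. The count of S members was not above that share. Besides HIF1A and 1 without a symbol, the called S members were those of GPD2, GAPDH, PCDH7 and MUC1.

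**Figure D4:**
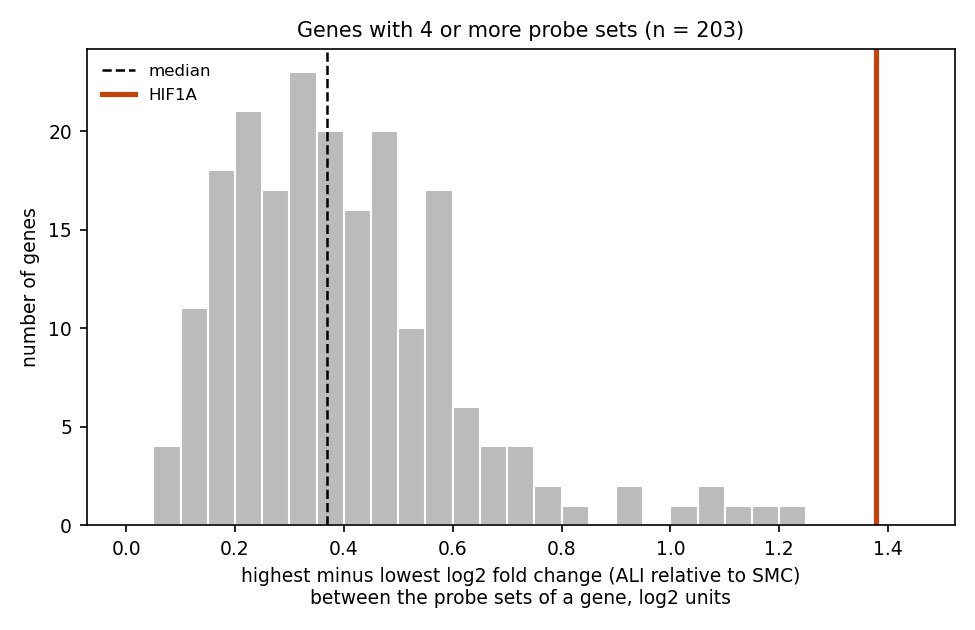
Histogram of the span of log2 fold changes between the probe sets of a gene, for the 203 genes with at least 4 probe sets. The dashed line is the median (0.37), and the coloured line at the right end is HIF1A (1.38).

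The array holds control probe sets at the 3′ and 5′ ends of some transcripts. Their distance depends on how intact the RNA was and on how far its copying reached. For actin the 3′ minus 5′ log2 distance was 2.74 to 3.18 in ALI and 2.24 to 2.39 in SMC, with no overlap. For GAPDH, itself lower in ALI, it was 1.37 to 1.70 in ALI and 0.550 to 0.675 in SMC. For the elongation factor control the groups overlapped, with 0.324 to 0.515 in ALI and 0.239 to 0.415 in SMC. The part of these differences in the values of the HIF1A probe sets, the intermediate one included, and of the other genes was not tested.

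The probe sets whose pattern over the 6 arrays was most like that of each HIF1A probe set were looked up among 2769 with a mean log2 value over 6 and an SD of at least 0.2. Pearson's r over 6 arrays is given as a description, and the arrays share culture type and passage. For the intermediate probe set they were ECD (r = 0.976), SKA2 (0.971) and WSB1 (0.971). ECD and SKA2 were called lower in ALI (limma adjusted p = 0.0166 and 0.0103) and WSB1 was not called (0.179). ECD had 10.95, 10.82 and 10.78 in ALI and 11.96, 11.57 and 12.11 in SMC, so it too was lowest in ALI and highest in the SMC culture of P113. These genes were picked for a high r with a probe set lower in ALI, so such values follow largely from that choice. For the bright probe set they were IDH3A (0.981), an enzyme subunit of the citric acid cycle, MTHFD1L (0.979) and BTBD10 (0.976), none of them called. The closest to the partner probe set were LOC595122 (0.988), CLTA (0.978) and GLMP (0.977). For the dim probe set no probe set exceeded an r of 0.95, and SERPINA1 (0.918), AHSG (0.868) and ABTB2 (0.861) were the closest. None of the genes named for the partner and the dim probe set was called. The leading genes of the 4 probe sets were different ones. Between themselves, the intermediate and the partner probe set had an r of 0.861 over the 6 arrays. For the other pairs of HIF1A probe sets r was −0.02 to 0.47.

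The other genes of the pathway were taken from lists, with a gene represented by whichever of its probe sets was brightest on average. Over 104 such genes 3 were higher and 15 lower in ALI by limma. Over all 6765 named genes 2.53% were called, with 1.02% higher and 1.51% lower. The lists hold known HIF-1 target genes and were drawn up with results of these data known, so their counts are no independent evidence of direction. With passage as a block 6 genes were higher and 20 lower, where 2.25% of all genes were higher and 3.75% lower.

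Of the 4 other HIF subunits and dimer partners measured, 1 was higher. ARNT2, a partner related to ARNT, had 5.75, 5.53 and 5.58 in ALI, against 4.78, 4.87 and 4.56 in SMC. All ALI values lay above all SMC values, with a log2 fold change of 0.88 (SE 0.12, limma adjusted p = 0.0136), and without the ALI array of P109 the adjusted p was 0.0713. EPAS1, which encodes the related HIF-2α, had 7.26, 7.02 and 7.56 in ALI, against 7.53, 7.33 and 7.82 in SMC. Its groups overlapped (log2 fold change −0.28, SE 0.17, limma adjusted p = 0.519). Within passages ALI minus SMC was −0.26, −0.31 and −0.26 at P109, P111 and P113, of 1 sign and nearly equal, and with passage as a block the limma adjusted p was 0.179. ARNT itself had a log2 fold change of −0.11 and averaged 4.51 in ALI and 4.62 in SMC, near the dim limit (limma adjusted p = 0.697). ARNTL, another partner of the same protein family, had 0.12 (adjusted p = 0.748).

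Of the 14 genes for oxygen sensing and turnover of HIF-1α, 0 were called by limma, 4 had an unadjusted p under 0.05 and 0 passed the methods' t-test after adjustment. Over all 23999 probe sets, 3440 had an unadjusted p under 0.05 in limma, so the count of 4 is only a description. EGLN1, the main prolyl hydroxylase of HIF-1α and itself a known HIF target, had 9.44, 9.99 and 9.80 in ALI, against 10.28, 10.08 and 10.93 in SMC. Each ALI value was under each SMC value, yet the log2 fold change of −0.68 did not pass (SE 0.23, limma adjusted p = 0.219). Its other probe sets gave −0.63 and −0.50, so its probe sets lay close together. COMMD1, which acts on HIF-1α stability, had 0.50 (adjusted p = 0.232, and 0.0376 with passage as a block).

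Of 9 coactivators and modulators 1 was lower. MUC1, a membrane mucin reported to bind HIF-1α in human cells, had a log2 fold change of −1.01 (limma adjusted p = 0.0228), and its second probe set had −0.08. Without any 1 array other than the ALI array of P113 its adjusted p was 0.0511 to 0.0788. Of 21 genes upstream of HIF1A transcription and translation 0 were called by limma, 3 had an unadjusted p under 0.05 and 0 passed the methods' t-test after adjustment. Beside these 3 stood 3440 of all 23999 probe sets with an unadjusted p under 0.05 in limma. The farthest from 0 were TLR4, a receptor for bacterial lipopolysaccharide, and PLCG1, a phospholipase. The brightest TLR4 probe set had 0.98 (limma adjusted p = 0.128, with block 0.0468) and PLCG1 had 0.40 (adjusted p = 0.185). The 5 probe sets of TLR4 ran from −0.09 to 0.98, and the mean over them had 0.37 (limma on gene means, adjusted p = 0.258).

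Of the 17 target genes of glycolysis and glucose uptake measured, 8 were lower and 0 higher, and the median log2 fold change was −0.72, beside 0.01 over all genes. Its median difference was −0.84, −0.60 and −0.79 at P109, P111 and P113. LDHA, the muscle-type subunit of lactate dehydrogenase, had 10.78, 11.42 and 10.88 in ALI, against 13.49, 12.89 and 13.42 in SMC. Its log2 fold change was −2.24 (SE 0.21, limma adjusted p = 0.0035), with a wide gap between the groups. The others named by the rule were the aldolase ALDOC (−1.75), the glucose transporter SLC2A3 (−1.72), the enolase ENO1 (−1.64), the phosphoglycerate kinase PGK1 (−1.64) and the triosephosphate isomerase TPI1 (−1.61), with limma adjusted p-values of 0.00292 to 0.00447. These 6 passed without any 1 array. GPI (−1.22) and GAPDH (−0.74), the other called members, are named outside the rule, after their values were seen. Both lost the call without the ALI array of P109, and GAPDH also without the SMC array of P111. Of the 5 GAPDH probe sets 4 were called, at −0.74 to −1.28.

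Of 35 target genes outside glycolysis, 6 were lower and 1 was higher, with a median of −0.14. ERO1A, an oxidase that helps form disulfide bonds, had 7.05, 7.28 and 6.99 in ALI, against 9.85, 9.11 and 8.88 in SMC. All ALI values were well under the SMC values, with a log2 fold change of −2.18 (SE 0.23, limma adjusted p = 0.00521). P4HA2, a collagen prolyl hydroxylase, had −1.85 (adjusted p = 0.00305), and both ERO1A and P4HA2 passed without any 1 array. The peptide hormone precursor ADM (−1.75, adjusted p = 0.0159), the repressor BHLHE40 (−1.35, 0.047), the collagen-modifying PLOD1 (−1.25, 0.0266) and the mucosal peptide TFF3 (−1.08, 0.0266) were lower, and the iron carrier TF (1.43, 0.0412) was higher. Each of these 5 lost its call without 2 or more of the single arrays. A second probe set of BHLHE40 had −0.27.

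TFF3 is named outside the rule, as is VEGFA, a growth factor for blood vessels, both after their values were seen. The 4 probe sets of VEGFA had log2 fold changes of 0.21, 0.03, −0.32 and −0.0058, with limma adjusted p-values of 0.188 or more, and the mean over them had −0.02.

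The 5 genes known to be lowered in hypoxia had a median log2 fold change of −0.17, and 3 of the 5 values were negative. These were ACADM at −0.35, ACADL at −0.26 and BRCA1 at −0.17, none of which passed. Of the 5 genes 2, ACADL among them, were dim in both culture types, so no direction can be read from those. One of the 5 was called, CPT1A, higher in ALI, which carries fatty acids into mitochondria (0.87, limma adjusted p = 0.0301), and it lost its call without any 1 array other than the SMC array of P111 (0.0602 to 0.0936).

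**Figure D5:**
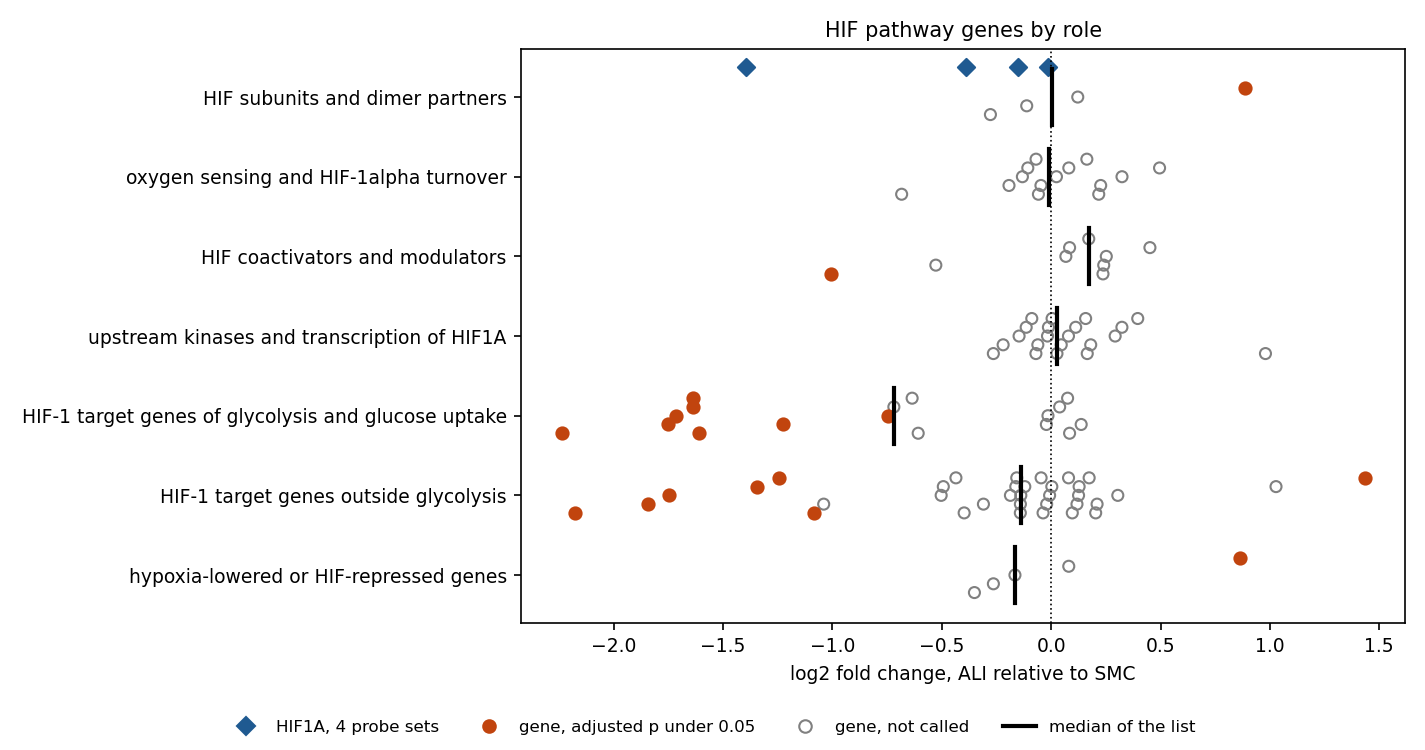
Log2 fold change of ALI relative to SMC for each measured gene of the HIF pathway lists, 1 point per gene, with filled points for genes called by limma and a line for the median of each list without HIF1A. The glycolytic targets lie mostly under 0 (median −0.72), while the oxygen-sensing genes (median −0.01) lie around it.

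Set beside its targets, the brightest HIF1A probe set had a log2 fold change of −0.15 where the glycolytic targets had a median of −0.72. The intermediate probe set had −1.39. Over all 17 glycolytic targets the log2 fold changes ran from −2.24 (LDHA) to 0.14 (PFKP, dim in both culture types). Both probe sets lay within that range, which is too wide to relate either of them to the targets. Whether either follows the amount of HIF-1α protein cannot be told from mRNA values.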

How the data were processed

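Total RNA of 6 cultures was hybridised to the Affymetrix GeneChip Porcine Genome Array, read with GCOS (version 1.1.1 in the submitters' processing notes). The values deposited by the authors were on a log2 scale, and their methods name GC-RMA, which corrects background by probe sequence and quantile normalises. The table does not name its normalization. The labels' free text names liver, while the other labels name jejunum and IPEC-1. They were used as deposited. Genome build and probe positions were not given in the sources used here.

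Of 24123 probe sets, 124 controls were left out. The platform annotation gave 1 symbol to 10069 of the 23999 others, several to 198 and none to 13732. ALI was compared with SMC in limma 3.58.1 (R 4.3.3, lmFit and eBayes, culture type as the only term), with Benjamini-Hochberg adjustment over all probe sets and calls at an adjusted p under 0.05. A simulated table with known changes was used to test the fit. Counts over genes used the probe set with the highest mean. Single values were compared with exact two-sided permutation tests. The number of arrays limits the precision. The methods' t-test is an alternative.

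The labels give each array's passage. Deviations from the group means were correlated between ALI and SMC arrays. Arrays of the same passage had 0.34, 0.14 and 0.451 at P109, P111 and P113, against −0.424 to 0.219 for other pairs. The ALI array of P111 was closer to the SMC array of P109 (0.219) than to that of P111. The SMC array of P111 was closest to the ALI array of P111, with −0.078 and −0.069 for the ALI arrays of P109 and P113. The pairing by passage was thus seen from both sides at P109 and P113, and from the SMC side only at P111. Passage was used as a block in an alternative fit.

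Named were all HIF1A probe sets, all HIF subunits and partners, up to 6 called members of each other list by size of change (the 2 farthest from 0 where none was called), called members against their list's direction, the 3 probe sets most like each HIF1A probe set and the 3 genes next to HIF1A in span. GPI, GAPDH, TFF3, VEGFA, ACADM, ACADL, BRCA1, PFKP, DNMT1, the genes of the A and S pairs and the markers are named outside this rule. HIF1A, the lists and this rule were chosen with earlier results of these data known.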

Additional observations from a re-analysis of the deposited data

How the results depend on the processing

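The log2 fold change of the intermediate probe set was −1.64 to −1.09 with 1 array left out, and it lost its limma call in 5 of these 6 fits. Under the methods' t-test its −1.39 had an adjusted p of 0.305 (unadjusted 0.0170), and in that test 0 probe sets were called higher and 0 lower after adjustment, 0 and 0 of the pathway genes, where 1468 and 1423 probe sets had an unadjusted p under 0.05 (limma 3440 in all, 159 called higher and 296 lower). Quantile normalisation, centring, an intensity trend, robust eBayes and the filter at a mean of 4 kept the call of the intermediate probe set (adjusted p 0.0323 to 0.0414). The filter at a mean of 6 kept only the bright probe set, so it gave no value for the others and no span for HIF1A.

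The bright probe set (−0.23 to −0.10 with 1 array left out) and the partner probe set (−0.57 to −0.29) kept their direction. The dim probe set ranged from −0.12 to 0.072, and was 0.021 without P113, a setting chosen after seeing the data. The distance of the bright probe set over the dim probe set ranged from −0.22 to 0.0037. The mean over the 4 probe sets ranged from −0.61 to −0.40 and the span from 1.09 to 1.53.

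With passage as a replicate block 480 probe sets were called higher and 796 lower, and 6 pathway genes higher. It changed the call of no HIF1A probe set. With 1 array left out, 42 to 174 probe sets were higher and 71 to 258 lower, and 0 to 3 and 9 to 14 of the pathway genes. The lowest counts came without the ALI array of P109 (48 and 71) and without the SMC array of P111 (42 and 86). The cause was not tested. Dim signal limits the dim probe set, the partner probe set and the ALI side of the intermediate probe set.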
